A study of Mus musculus with 16 samples.

Results

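The cytosolic ribosomal protein genes encode the proteins of the cytoplasmic ribosome. They were chosen by a rule on the symbol that uses no signal value, with earlier results of these data known. The rule takes Rpl or Rps with a number and at most a letter or a further copy number, together with Rplp0, Rplp1, Rplp2 and Rpsa. Kinases of the Rps6k family and pseudogene symbols were left out. On these arrays 69 genes met the rule, of 17097 genes measured in all, and 132 of 45037 probe sets belonged to them. Of the 69 genes, 24 encode proteins of the small subunit and 45 proteins of the large subunit. They lie on 19 chromosomes, with at most 9 on any of them. Each gene was represented by its brightest probe set over the 16 arrays, which was the only choice for 35 genes. Of these 69 probe sets, 18 have names ending in x_at and 5 in s_at, which mark sets that may be shared between transcripts.

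A ribosome is assembled in the nucleolus from ribosomal RNA, made largely by RNA polymerase I, and from proteins imported from the cytoplasm. The small subunit decodes the message, and the large subunit joins the amino acids and carries a flexible stalk that recruits the elongation factors. Messages for ribosomal proteins begin, at the cap, with a run of pyrimidines known as the 5′ terminal oligopyrimidine (TOP) motif, through which growth signals set their translation together. A few ribosomal proteins have a paralogue that takes the place of the common copy in some tissues, such as Rpl3l in heart and skeletal muscle and Rpl39l in male germ cells.

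RNA was measured on Affymetrix arrays in mice lacking nuclear myosin 1 (NM1), an isoform made from Myo1c that takes part in ribosomal RNA synthesis, and in wild-type mice. The groups were NM1 knock-out (KO) lungs and heart of mice 1602, 1603 and 1586, wild-type (WT) lungs and heart of mice 1592, 1624 and 1593, KO skin fibroblasts of mice 1584 and 1550, and WT skin fibroblasts of mice 1571 and 1623. Lungs and heart thus came from the same 6 mice and the 4 fibroblast samples from others, derived from skin and grown as cells. No treatment is named, and the sources used here do not give the age, sex, strain, deleted part of the gene or culture conditions.

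To show what the start of these genes looks like, the 20 bases on either side of the annotated start are given for the 3 members with the longest pyrimidine run there, Rpl7a, Rpl27a and Rpl35, and for Rpl39, Rpl39l and Rpl3l, whose signals are described further on. Capitals mark the longest run of C and T that touches the 5 bases on either side of the start. All are written 5′ to 3′ on the strand of the gene and come from RefSeq, build GRCm38.p6.
Rpl7a: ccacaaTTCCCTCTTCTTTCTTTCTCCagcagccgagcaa
Rpl27a: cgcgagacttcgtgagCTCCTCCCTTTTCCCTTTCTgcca
Rpl35: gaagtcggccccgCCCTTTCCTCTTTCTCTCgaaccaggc
Rpl39: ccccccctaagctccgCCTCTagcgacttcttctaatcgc
Rpl39l: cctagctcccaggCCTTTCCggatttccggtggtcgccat
Rpl3l: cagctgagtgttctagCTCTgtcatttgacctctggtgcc
The windows lie at chr2:26910787-26910826 for Rpl7a, chr7:109519175-109519214 for Rpl27a, chr2:39005112-39005151 on the minus strand for Rpl35, chrX:37085203-37085242 on the minus strand for Rpl39, chr16:10170208-10170247 for Rpl39l and chr17:24727806-24727845 for Rpl3l. Each holds the end of a promoter and the beginning of the annotated first exon.

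The runs were 21 bases in Rpl7a, 20 in Rpl27a and 18 in Rpl35, against 7 in Rpl39l, 5 in Rpl39 and 4 in Rpl3l. Annotated starts were found for 55 of the 69 members. A run of at least 8 pyrimidines touched the 5 bases around the start in 18 of them (32.7%), compared with 9.3% of 27025 genes in the same table. With 10 bases on either side the share was 43.6% of members and 13.5% of all genes. The annotated start can differ from the start used in these tissues, so a short run in this window says only what these letters are. Within 250 bases before and 50 after the start, on both strands, the letters CCGGAAG, a core to which ETS family factors bind, stood in 41.8% of members and 9.12% of all genes. The letters AAGATGGC, a core of the YY1 motif, stood in 7.27% and 2.88%, and the letters TATAAA in 10.9% and 14.2%.

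Averaged over 4 probe sets, Myo1c read lower in KO than in WT in each of the 3 tissues, at 6.65 against 8.0 in lungs, 5.97 against 6.72 in heart and 6.25 against 7.67 in fibroblasts (log2 signal), although these probe sets do not separate NM1 from the other Myo1c isoforms. Markers of alveolar type II cells averaged at least 13.38 in lungs and at most 4.73 elsewhere. Ventricular muscle markers averaged at least 13.57 in heart, 5.22 to 9.16 in lungs and at most 3.47 in fibroblasts. In lungs that average rested on Actc1, Tnni3 and Tnnt2. Myl2, of the same list, read 3.19 to 4.14 in lungs, close to its 3.44 to 3.82 in fibroblasts. Atrial muscle markers averaged 5.98 to 10.30 in lungs. Fibroblast markers averaged 9.40 to 10.20 in the cultured cells, above both organs. Transcripts of adipocytes were high in KO lungs 1603 and 1586 and in WT lungs 1592. Those lung samples also had the highest averages of both muscle marker lists among the lungs, for the ventricular list without a high Myl2. The part of these muscle transcripts in the lungs against heart differences was not tested. Transcripts of atrial muscle were low in KO hearts 1602 and 1586. KO heart 1602 also stood apart in its upper quartile, 5.63 against 6.17 to 6.31 in the other 5 hearts, while its ribosomal protein genes lay close to those of its group, with a median deviation of -0.045 against -0.24 over all kept probe sets.

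Most ribosomal protein genes were lowest in heart and highest in cultured fibroblasts, with lungs between them. The median signal of the 69 members lay between 11.69 and 11.84 in the 6 hearts, between 12.21 and 12.31 in the 6 lung samples and between 12.61 and 12.63 in the 4 fibroblast samples, so the 3 tissues did not overlap. The order of group means was fibroblasts, lungs, heart for 55 of the 68 members above the filter in WT samples and for 50 of 68 in KO samples, an order found in 22.9% and 25.4% of all kept probe sets. Heart was lowest for 65 members in WT and 60 in KO, against 38.3% and 42.8% of all kept probe sets. For 21 members in WT and 23 in KO each of the 3 steps was called, against 5.20% and 7.54% of probe sets. A call here means an adjusted p under 0.05 in limma's moderated test, with Benjamini-Hochberg adjustment over all kept probe sets. In such bulk samples fewer cells of a type and less RNA per cell cannot be told apart.

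**Figure D1:**
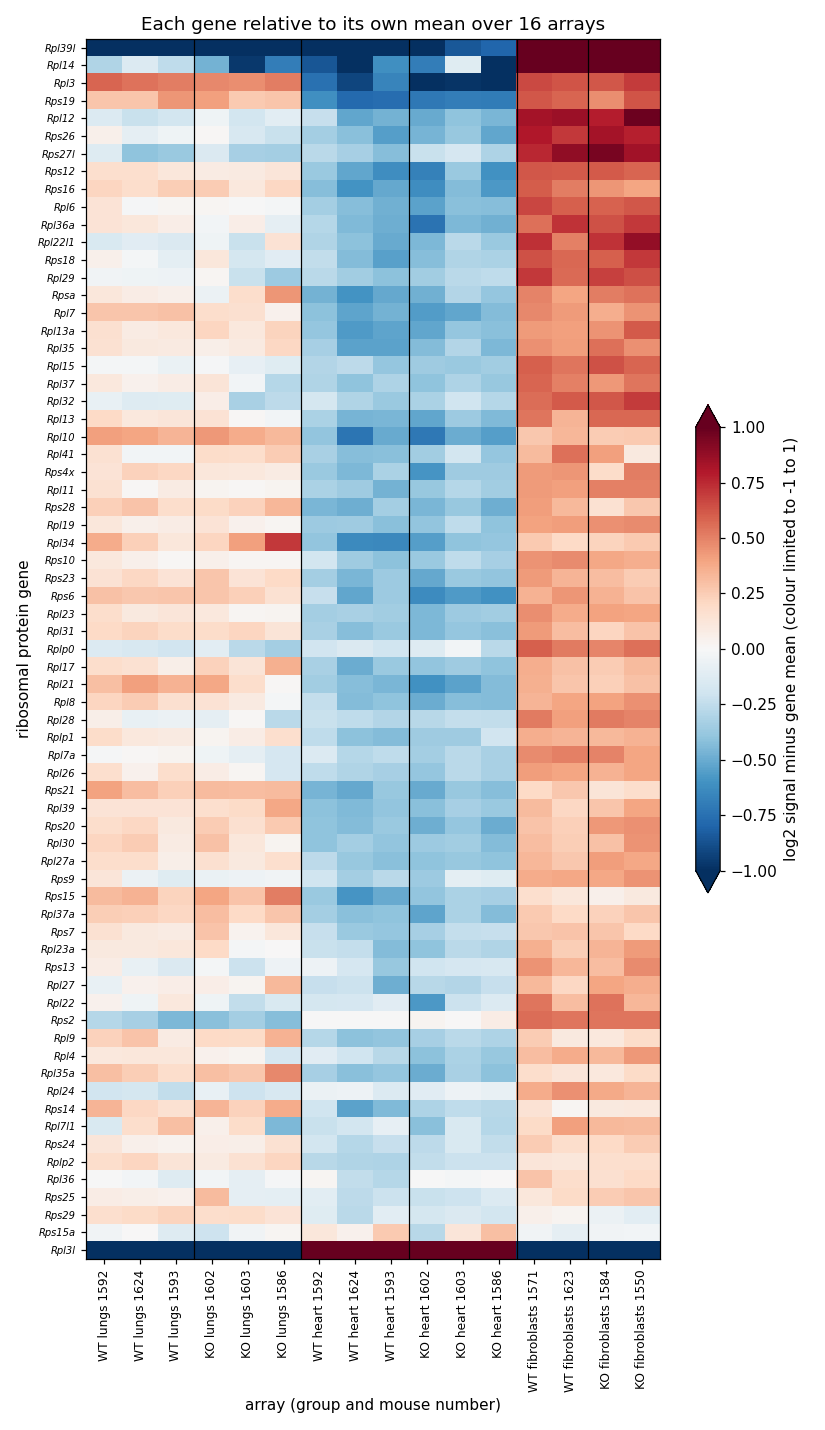
Heat map of the 69 ribosomal protein genes (rows) on 16 arrays (columns), with colour giving the log2 signal minus the gene's own mean, limited to the range from -1 to 1, and vertical lines separating the 6 groups. The heart columns are mostly blue, below the gene's mean, and the fibroblast columns mostly red, except for Rpl3l at the foot, which is above its mean in the 6 hearts alone.

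In numbers, WT lungs exceeded WT heart for 52 members and lay below it for 2, of 67 that passed the filter, while 60.2% of all kept probe sets were called in this comparison, 34.8% as higher in lungs and 25.4% as lower. The median difference over the 69 members was 0.46 on the log2 scale and over all kept probe sets 0.19. WT lungs lay below WT fibroblasts for 34 of 67 members and above for 0, against 60.1% of probe sets called, 31.7% as lower and 28.4% as higher, with medians of -0.27 for members and -0.048 for all. WT heart lay below WT fibroblasts for 66 of 68 members and above for 1, against 63.8% of probe sets called, 36.2% as lower and 27.7% as higher, with medians of -0.73 and -0.16. The members stood farthest from the background in heart against fibroblasts, where Rps29 was the only kept member not called (-0.21). Quantile normalization moved the median over all kept probe sets from 0.19 to 0.041 for lungs against heart, and the members' median from 0.46 to 0.52. The same change moved the members' median to -0.20 for lungs against fibroblasts and to -0.77 for heart against fibroblasts.

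The KO samples are other animals, and the same tissue differences were measured in them. KO lungs against KO heart gave 51 members higher and 2 lower of 67 (68.4% of all kept probe sets called, 43.4% as higher). KO lungs against KO fibroblasts gave 2 higher, Rps15 (0.32) and Rps29 (0.25), and 36 lower of 67 (65.2% called, 29.5% as higher and 35.7% as lower). The other Rps15 probe set read 12.12 in KO lungs and 12.14 in KO fibroblasts and so was not higher in lungs. The other Rps29 probe set read 13.23 in KO lungs and 12.93 in KO fibroblasts. KO heart against KO fibroblasts gave 1 higher, Rpl3l, and 65 lower of 68 (67.2% called, 24.5% as higher and 42.7% as lower). Medians over the 69 members were 0.41, -0.32 and -0.75. Of the members called in WT, 51 of 54, 31 of 34 and 66 of 67 were called in the same direction in KO, and 0 in the opposite direction. Across the members, which are not independent of each other, the WT and KO differences correlated with r = 0.934 (n = 66), 0.964 (n = 66) and 0.948 (n = 66) without Rpl3l and Rpl39l.

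**Figure D2:**
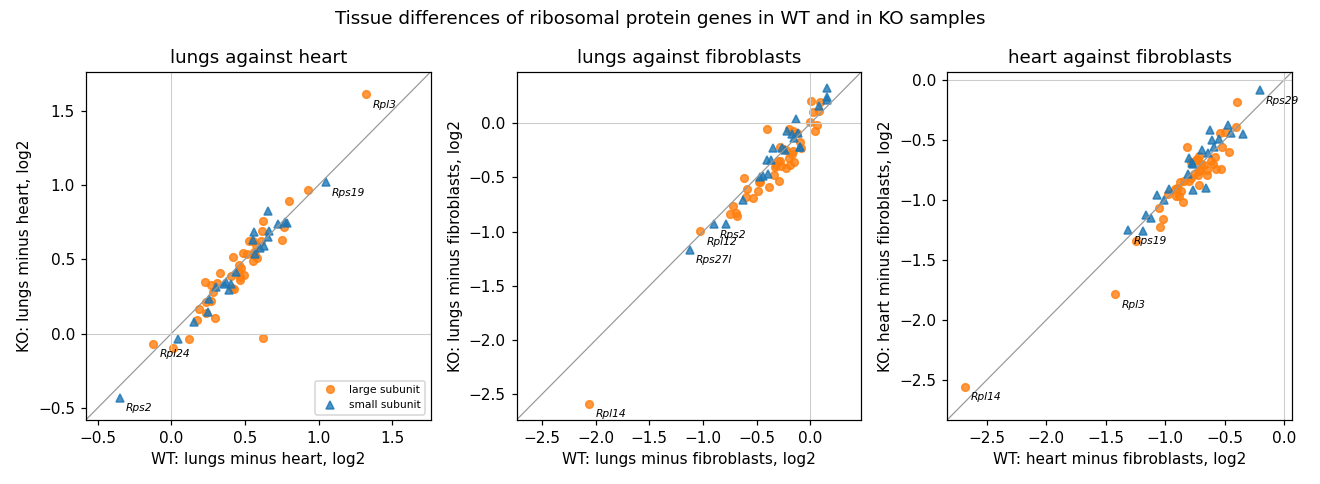
Difference between tissues for each ribosomal protein gene above the filter, in WT samples (x axis, log2) and in KO samples (y axis, log2), with the diagonal marking equal values; circles are large subunit and triangles small subunit genes, and Rpl3l and Rpl39l lie outside the plotted range and are left out. Most points lie above 0 for lungs against heart and below 0 for heart against fibroblasts in both genotypes, and Rpl3, Rps19 and Rpl14 are the outermost of the labelled genes. Rpl14 was read from a single dim probe set.

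The samples also differed in the transcripts of dividing cells. The mean of 5 measured genes of that list, out of 6, was 8.29 to 8.45 in fibroblasts, 5.38 to 5.86 in lungs and 4.72 to 5.0 in heart, which is the same order as that of the ribosomal protein genes. Its part in the tissue differences was not tested. Leaving out the 3 lung samples with adipocyte transcripts, an alternative chosen after seeing the data, reduced the calls for KO lungs against KO fibroblasts from 38 to 23, with 1 KO lung sample left and taken to vary like the other groups, and leaving out WT fibroblasts 1571 reduced those for WT lungs against WT fibroblasts from 34 to 22.

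Among the paralogues, Rpl3 and Rpl3l went opposite ways in heart. Rpl3 is a core protein of the large subunit that sits near the peptidyl transferase centre, and Rpl3l is its copy in striated muscle. The Rpl3l signal was 10.02, 9.68 and 9.42 in WT hearts 1592, 1624 and 1593 and 10.16, 9.88 and 10.01 in KO hearts 1602, 1603 and 1586. In the 6 lung samples it was 2.59 to 2.80 and in the 4 fibroblast samples 2.44 to 2.97, under the filter value of 3.79. The hearts thus stood clear of all other samples. Rpl3l passed the filter only through heart, so its calls against lungs and fibroblasts were bound to follow, and no size is given for these differences because the other signals were under the filter.

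Rpl3 showed the reverse. Its signal was 11.09, 10.92 and 11.18 in WT hearts 1592, 1624 and 1593, 10.49, 10.85 and 10.78 in KO hearts 1602, 1603 and 1586, 12.30 to 12.42 in lungs and 12.46 to 12.53 in fibroblasts. Every heart was below every other sample, and the KO hearts were all below the WT hearts. WT lungs exceeded WT heart by 1.32 (SE 0.11, 2.50-fold, adjusted p = 2.36e-07), the largest difference of this direction among the members. WT heart minus WT fibroblasts was -1.42 (SE 0.13, adjusted p = 3.3e-07), while WT lungs and WT fibroblasts differed by -0.097 (adjusted p = 0.528). No probe set of Rpl3l is compared in level with that of Rpl3, since different probes have different brightness.

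**Figure D3:**
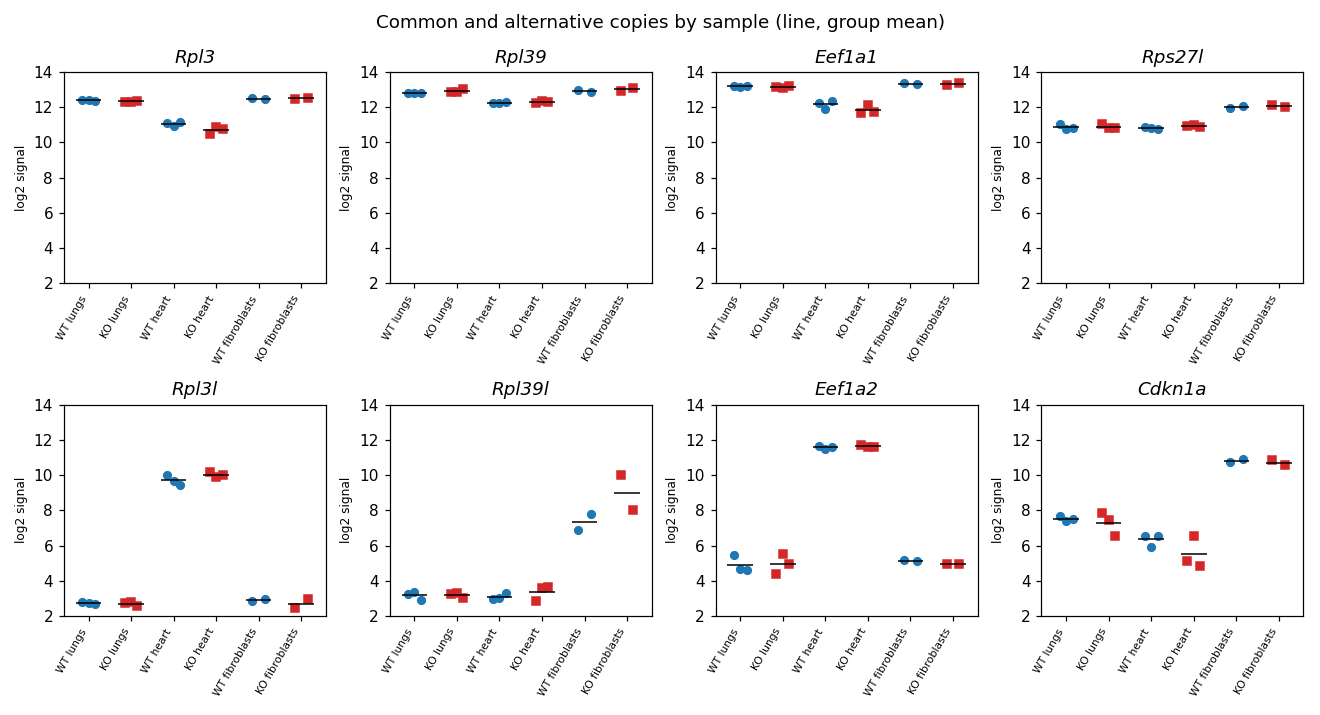
Log2 signal (y axis) of 8 genes in every sample, by group on the x axis, with blue circles for WT, red squares for KO and a line at each group mean. Rpl3l and Eef1a2 are high in heart alone where Rpl3 and Eef1a1 are lower, Rpl39l is high in fibroblasts alone, and Rps27l and Cdkn1a are highest in fibroblasts.

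Rpl39l, known as a germ cell copy of Rpl39, was measured well above the filter in fibroblasts alone. The signal was 6.88 and 7.82 in WT fibroblasts 1571 and 1623 and 9.99 and 8.01 in KO fibroblasts 1584 and 1550, against 2.83 to 3.66 in the 12 organ samples. All 4 fibroblast samples were above every organ sample, and the spread among the fibroblasts was the widest of the members described here (SD 0.661 in WT and 1.40 in KO, n = 2 each). The gene passed the filter only through fibroblasts, so its calls against the organs were bound to follow and no size is given for them. Markers of testis germ cells (Ddx4, Dazl, Tnp1 and Prm1) averaged 2.92 to 3.14 in the fibroblasts, at the level of the lungs and hearts. Rpl39 itself, a small protein of the exit tunnel, was 12.88 to 13.06 in fibroblasts and 12.80 to 13.05 in lungs, which overlapped, and 12.23 to 12.33 in heart. WT lungs exceeded WT heart for Rpl39 by 0.55 (SE 0.097, adjusted p = 2.45e-04).

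Rps27l, a copy of Rps27 induced by p53, was 11.92 to 12.11 in fibroblasts and 10.74 to 11.04 in the 12 organ samples, without overlap. WT lungs and WT heart differed by 0.042 (adjusted p = 0.764), and against WT fibroblasts the differences were -1.12 for lungs and -1.16 for heart (SE 0.12, adjusted p = 4.15e-06 and 2.07e-06). Its other 2 probe sets gave -1.48 and -1.29 for lungs against fibroblasts, both called. Rps27 is not analysed here. Rpl22l1, the copy of Rpl22, had 11.37 to 11.76 in fibroblasts and 10.37 to 11.02 in the organs, and WT lungs minus WT fibroblasts was -0.75 (SE 0.13, adjusted p = 2.9e-04). Rpl22, an RNA-binding protein that represses its copy, gave -0.39 for WT lungs minus WT fibroblasts (SE 0.14, adjusted p = 0.0328). That call was lost without WT lungs 1592 (adjusted p = 0.0602) and without WT fibroblasts 1571 (adjusted p = 0.233), and the other Rpl22 probe set gave -0.13 (adjusted p = 0.655).

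Rpl7 was 12.31 to 12.33 in WT lungs, 11.51 to 11.63 in WT heart and 12.46 to 12.52 in WT fibroblasts. Lungs and heart differed by 0.75 (SE 0.093, adjusted p = 1.05e-05). Rpl7l1, a related protein that acts in the assembly of the large subunit, was 7.49 to 7.94 in WT lungs and 7.42 to 7.56 in WT heart, which overlapped, with a difference of 0.27 (adjusted p = 0.172), while another of its probe sets gave -0.34 and was called (adjusted p = 0.0276). Heart against fibroblasts was called for Rpl7l1 at -0.46 (adjusted p = 0.0406). That call was lost with quantile normalization, with no filter, without any 1 of the 3 WT hearts, without either WT fibroblast sample and without some arrays of other groups (adjusted p = 0.0507 to 0.226), and the other 2 probe sets gave -0.43 and -0.75, both called. The common copies Rpl10, Rpl36a and Rps4x were lower in WT heart than in WT lungs by 0.93, 0.51 and 0.57, all called.

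In the stalk, Rplp0, which anchors it to the ribosome, was 12.49 to 12.55 in WT lungs and WT heart together and 13.21 and 13.28 in WT fibroblasts. Lungs and heart differed by 0.013 (SE 0.10, adjusted p = 0.920) and lungs minus fibroblasts was -0.72 (SE 0.11, adjusted p = 1.1e-04). Rplp1 and Rplp2, the acidic proteins that form its mobile arms, were lower in WT heart than in WT lungs by 0.49 (SE 0.099, adjusted p = 7.27e-04) and 0.47 (SE 0.088, adjusted p = 4.32e-04). Rplp2 was 12.98 to 13.06 in WT lungs and 12.96 to 12.97 in WT fibroblasts, a difference of 0.057 that was not called. The difference of these differences between stalk genes was not tested.

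In the small subunit, 18 of 23 kept members were higher in WT lungs than in WT heart and 1 was lower, against 34 and 1 of 44 in the large subunit. Over all kept probe sets the shares were 34.8% and 25.4%. The median differences over all 24 and 45 members were 0.49 and 0.46. Rps19, needed for the maturation of the small subunit RNA and mutated in Diamond-Blackfan anaemia, was 12.22 to 12.38 in WT lungs, 11.16 to 11.33 in WT heart and 12.52 to 12.56 in WT fibroblasts. The 3 tissues did not overlap, and lungs exceeded heart by 1.05 (SE 0.10, 2.07-fold, adjusted p = 8.01e-07). The other members among the 10 largest of this direction were Rpl10 (0.93), Rpl34 (0.80), Rps15 (0.78), Rps21 (0.77), Rpl21 (0.76), Rpl7 (0.75), Rps16 (0.72) and Rps28 (0.66). The other Rps15 probe set read 12.04 in WT lungs and 11.70 in WT heart, a smaller difference. For Rpl21 the call was lost on a probe set whose name does not mark it as shared between transcripts (0.40, adjusted p = 0.176). That probe set was dim, at 4.07 in WT lungs and, under the filter value, 3.67 in WT heart. The remaining Rpl21 probe set, with a name ending in x_at, was bright, at 12.05 and 11.18. It gave 0.87 and was called (adjusted p = 1.05e-05).

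Rps2, which lies at the entry of the message channel, was the other member lower in lungs than in heart. Its signal was 12.30, 12.25 and 12.14 in WT lungs 1592, 1624 and 1593 and 12.58 in each of the 3 WT hearts. In KO samples it was 12.16 to 12.24 in lungs and 12.59 to 12.66 in heart, so the organs did not overlap in either genotype. The WT difference was -0.35 (SE 0.091, adjusted p = 0.0045) and the KO difference -0.43 (SE 0.091, adjusted p = 8.45e-04). The other 2 probe sets of Rps2 gave -0.34 and -0.30 in WT, both called. Rps2 was still highest in fibroblasts, 13.12 to 13.14, with -0.90 for WT lungs minus WT fibroblasts. Rpl24 was also not lowest in heart, but its difference between lungs and heart, -0.12, was not called (adjusted p = 0.260).

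Genes of Diamond-Blackfan anaemia, an inherited failure of red cell production, were called as higher in WT lungs than in WT heart for 14 of 14 kept members, of 15 measured, against 34.8% of all kept probe sets, from 0.28 for Rpl15 to 1.05 for Rps19. Most ribosomal protein genes were called this way too, 52 of 67 kept. The median difference was 0.43 over the disease genes and 0.46 over the 69 members. The ribosomal proteins that bind the p53 ligase Mdm2 were measured by Rpl11, Rpl23 and Rps7. They were higher in WT lungs than in WT heart by 0.46, 0.47 and 0.44 and differed by -0.80, -0.76 and -0.60 between WT heart and WT fibroblasts, all called. The medians over the 69 members in these comparisons were 0.46 and -0.73. Rpl5, the partner of Rpl11 on the 5S RNA, and Rps3 were present only on probe sets shared with another gene and were not used. The single-gene probe set of Rps15a read 2.71 to 3.28 in all 16 samples, under the filter, and gave no tissue or genotype result.

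Below fibroblasts by more than any other member apart from Rpl39l was Rpl14, a large subunit protein with a single probe set here. Its signal was 5.22 to 5.38 in WT lungs, 4.44 to 4.90 in WT heart and 7.32 to 7.37 in WT fibroblasts. This is dim beside the members' median of 12.61 and 12.63 in WT fibroblasts 1571 and 1623. Whether the probe set reports the main transcript of the gene was not tested. WT lungs minus WT fibroblasts was -2.06 (SE 0.25, 4.17-fold, adjusted p = 8.49e-06) and WT heart minus WT fibroblasts -2.68 (SE 0.25, 6.41-fold, adjusted p = 4.53e-07). Rpl12, a neighbour of the stalk base, had -1.02 for lungs and -1.25 for heart. Rps26, at the exit of the message channel, had -0.78 and -1.19. Lungs also lay below fibroblasts for Rpl32 (-0.69) and Rpl29 (-0.68), and heart for Rps12 (-1.12), Rps16 (-1.07) and Rpl6 (-1.05).

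Where a gene had more than 1 probe set, the others mostly gave the same direction. Of 43 other probe sets of members called in WT lungs against WT heart, 38 were called in the same direction and 1 in the opposite one. The counts were 14 and 1 of 24 for lungs against fibroblasts and 46 and 1 of 54 for heart against fibroblasts.

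Loss of NM1 gave no called change in a ribosomal protein gene. The comparison addresses whether these genes respond to the loss of a protein linked to ribosomal RNA synthesis. With limma's test 0 of 66 kept members were called in KO against WT lungs (0.0301% of all kept probe sets called), 0 of 67 in heart (0.127%) and 0 of 67 in fibroblasts (0.0549%). At an unadjusted p under 0.05 there were 1, 2 and 1 members, against 6.96%, 17.0% and 3.33% of all kept probe sets. When both organs of a mouse were averaged, 0 of 67 were called (0.00802%), and 0 passed an unadjusted p under 0.05. Tests of whether the genotype difference itself differed between tissues called 0 members for lungs against heart (0% of probe sets), 0 for lungs against fibroblasts (0.0197%) and 0 for heart against fibroblasts (0.0203%), with 0, 1 and 1 at an unadjusted p under 0.05, Rpl39l in both of the latter. KO and WT values did not overlap for 10 members in lungs, 5 in heart and 25 in fibroblasts, compared with 11.5%, 17.6% and 32.5% of all kept probe sets.

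The median KO minus WT difference over the 69 members was -0.026 in lungs, 0.0028 in heart and 0.014 in fibroblasts, against -0.059, -0.16 and 0.024 over all kept probe sets. The members were measured with little spread: their median SD within groups was 0.0793 for 68 members, against 0.272 for 26499 kept probe sets. The 95% interval of the KO minus WT difference lay within 0.5 on the log2 scale, 1.41-fold, on either side of 0 for 64 of 66 kept members in lungs, 64 of 67 in heart and 64 of 67 in fibroblasts. The median reach of these intervals to either side was 0.218 in lungs and heart and 0.267 in fibroblasts.

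**Figure D4:**
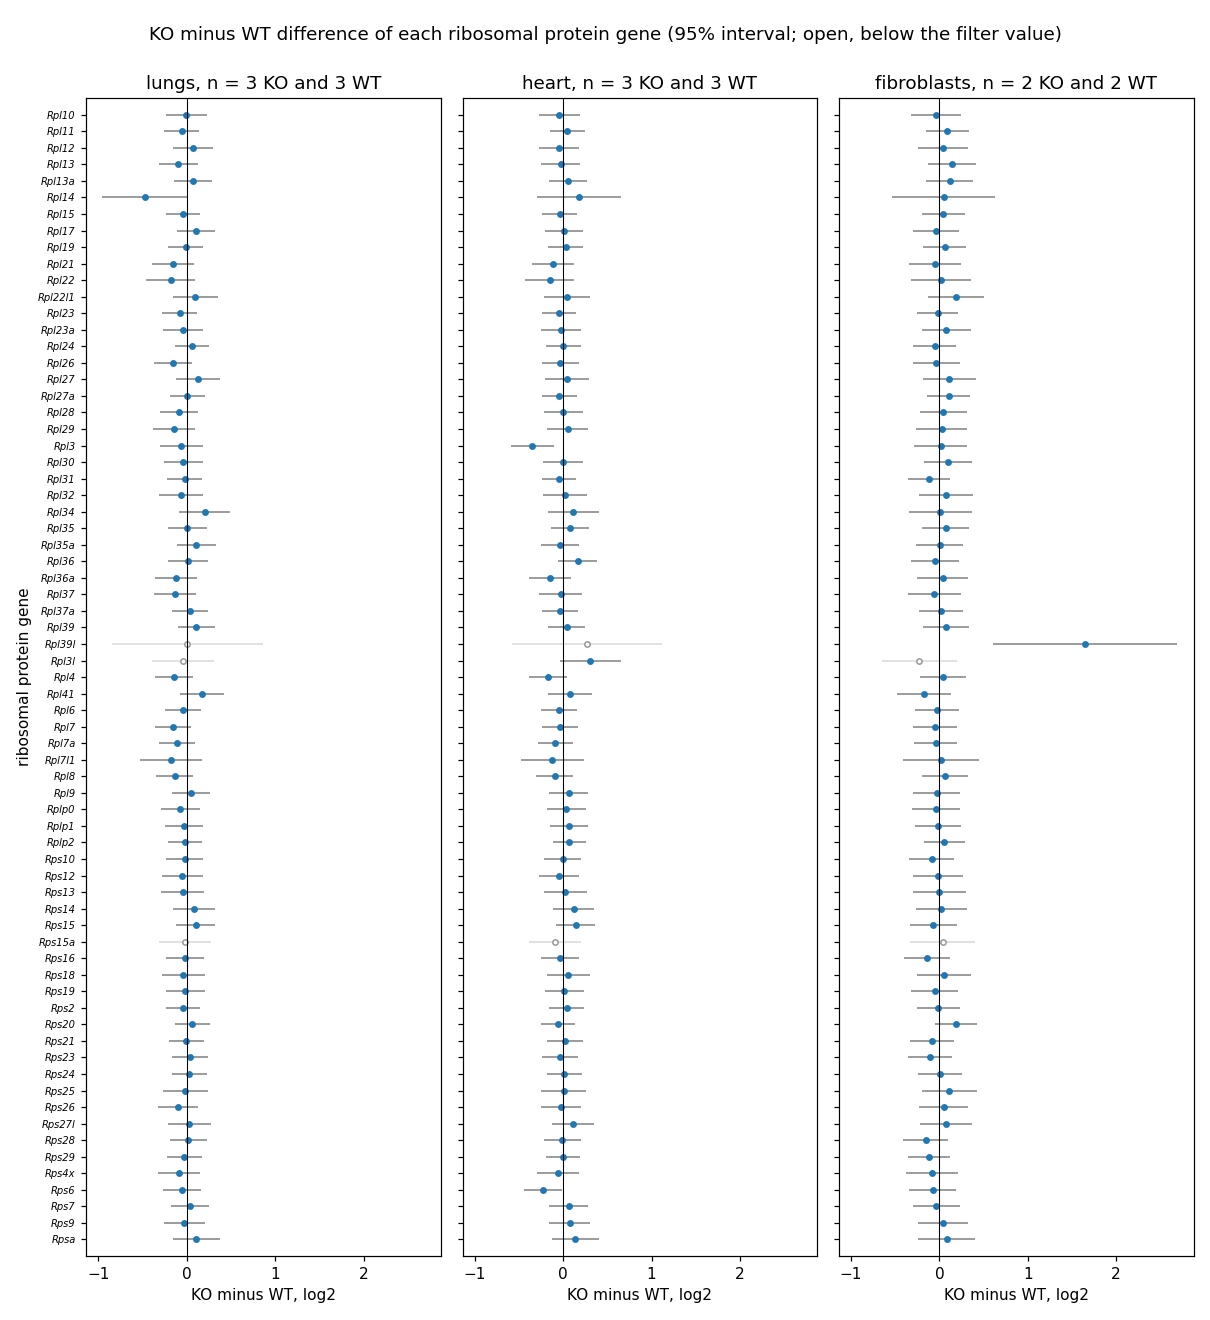
KO minus WT difference (x axis, log2) of each ribosomal protein gene (y axis) in lungs, heart and fibroblasts, with points for the fitted difference, bars for the 95% interval and open grey points for genes below the filter. Nearly all points lie close to 0, and the interval of Rpl39l in fibroblasts, from 0.60 to 2.69, is the one farthest from it.

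In heart the member with the smallest adjusted p was Rpl3. The sample values given above put the KO hearts below the WT hearts without overlap, and the difference was -0.35 (SE 0.11, 95% interval -0.59 to -0.11) and was not called (adjusted p = 0.170 from limma). Without KO heart 1602 it was -0.24, and without KO hearts 1602 and 1586 it was -0.21. Atrial muscle transcripts averaged 5.47 and 6.30 in these 2 hearts and 10.28 to 12.22 in the other 4, and their part in the difference was not tested. Rpl3l was 0.31 higher in KO hearts (95% interval -0.041 to 0.66, adjusted p = 0.350), with 1 WT heart among the KO values. Rps6, the small subunit protein phosphorylated by S6 kinases, was 12.50, 12.20 and 12.36 in WT hearts 1592, 1624 and 1593 and 12.10, 12.16 and 12.12 in KO hearts 1602, 1603 and 1586. These groups did not overlap, and the difference of -0.23 was not called (adjusted p = 0.276). The next values in heart were Rpl14 (0.17), Rpl36 (0.16), Rps15 (0.14) and Rpsa (0.14) on the higher side and Rpl4 (-0.17), Rpl22 (-0.15) and Rpl36a (-0.15) on the lower side.

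In fibroblasts Rpl39l had the largest genotype difference of any member, 1.65 (SE 0.49, 95% interval 0.60 to 2.69, adjusted p = 0.638). Both KO samples were above both WT samples, but KO 1550 exceeded WT 1623 only slightly, at 8.01 against 7.82. Without KO fibroblasts 1550 the difference was 2.64 and was called (adjusted p = 0.0321, 1 of 67 members), with the lone KO sample taken to vary like the other groups. Without KO fibroblasts 1584 it was 0.66 and was not called. All other kept members lay between -0.18 for Rpl41 and 0.18 for Rpl22l1 and Rps20, among them Rpl13 (0.14), Rpl13a (0.11), Rps28 (-0.16), Rps16 (-0.14), Rps29 (-0.12) and Rpl31 (-0.12).

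In lungs the largest genotype difference was that of Rpl14, read from its single dim probe set, with 5.22, 5.38 and 5.26 in WT lungs 1592, 1624 and 1593 and 5.04, 4.55 and 4.82 in KO lungs 1602, 1603 and 1586. The groups did not overlap, and the difference of -0.48 (SE 0.22) was not called (adjusted p = 0.711). Rpl34 (0.20), Rpl41 (0.17), Rpl27 (0.13), Rpl35a (0.11) and Rpsa (0.11) were highest in KO relative to WT, and Rpl22 (-0.18), Rpl7l1 (-0.18), Rpl21 (-0.16) and Rpl7 (-0.16) lowest after Rpl14. Without the 3 lung samples with adipocyte transcripts, which leaves 1 KO sample against 2 WT samples, Rpl14 came to -0.28, Rpl34 to 0.043, Rpl27 to 0.011, Rpsa to -0.12 and Rpl21 to 0.0076.

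Partners of the ribosome were read from lists of genes with related roles. In limma's genotype comparisons 0 genes of the 7 lists were called, and 2 of 69 kept in lungs, 7 of 71 in heart and 2 of 70 in fibroblasts had an unadjusted p under 0.05, against 6.96%, 17.0% and 3.33% of all kept probe sets. Fau and Rpl36al, ribosomal protein genes outside the symbol rule, were higher in WT lungs than in WT heart by 0.85 and 0.47 and differed by -0.76 and -0.63 between WT heart and WT fibroblasts, all called. Among 7 elongation factor genes, 3 were higher and 3 lower in WT lungs than in WT heart, against 34.8% and 25.4% of all kept probe sets. Eef1a2, the form of the aminoacyl-tRNA carrier found in muscle and neurons, was 11.51 to 11.65 in WT heart and 4.61 to 5.46 in WT lungs, a difference of -6.68 (SE 0.25, adjusted p = 6.98e-11). Eef1a1, the common form, named here after its values were seen, was 13.17 to 13.19 in WT lungs and 11.89 to 12.36 in WT heart, a difference of 1.01 (SE 0.14, adjusted p = 2.41e-05). The 2 forms thus differed between the organs in opposite directions, like Rpl3l and Rpl3.

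Of the initiation factor genes, 18 of 22 were called as lower in WT lungs than in WT fibroblasts and 17 of 22 as lower in WT heart, with 0 as higher, against 31.7% and 36.2% of all kept probe sets called as lower. The 22 include Eif4e, which passed the filter only through fibroblasts (4.41 and 4.85 in WT, against 3.22 to 3.67 in WT lungs and heart). A call of Eif4e against either organ was thus bound to follow. Between the organs 3 of 21 were higher in WT lungs and 6 lower, against 34.8% and 25.4% of all kept probe sets. Eif1a, which helps the small subunit find the start codon, was the largest, with 1.45 for WT lungs against WT heart and -2.99 for WT heart against WT fibroblasts. Of 8 other TOP messages, 3 were higher in WT lungs than in WT heart and 0 lower, against 34.8% and 25.4% of all kept probe sets. In WT heart 7 of the 8 were lower than in WT fibroblasts, against 36.2% of all kept probe sets. Pabpc1, the poly(A)-binding protein, differed by 1.08 and -1.72 in these comparisons, and Vim, which encodes the fibroblast filament protein vimentin, by -2.14 in the latter.

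Of 16 genes of RNA polymerase I and of early ribosome assembly, 2 were higher and 7 lower in WT lungs than in WT heart, against 34.8% and 25.4% of all kept probe sets, and their median was -0.39 against 0.19 over all. The 16 include Ncl, which passed the filter only through heart. It read 3.87 to 4.50 in WT heart, 3.27 to 3.63 in WT lungs and 3.61 and 3.80 in WT fibroblasts. Any tissue call of Ncl was thus bound to be higher in heart. Polr1a, the largest subunit of the polymerase, differed by -1.67 between WT lungs and WT heart, and Wdr12, an assembly factor of the large subunit, by -1.80. Ubtf, which binds the ribosomal DNA promoter, was 0.61 higher in lungs. Against fibroblasts 11 of 15 were lower and 1, Ubtf (0.51), higher in WT lungs, and 6 of 16 were lower and 1, Polr1a (1.04), higher in WT heart (31.7% and 36.2% of all kept probe sets called as lower). Among regulators, Myc, an activator of ribosomal genes, was 8.15 and 8.36 in WT fibroblasts and 5.05 to 5.53 in WT lungs and heart, with differences of -2.97 and -2.99 against fibroblasts. Eif4ebp1, an inhibitor of cap-dependent initiation, differed by -1.90 between WT lungs and WT heart and Eif4ebp2 by 1.32. Mycn, a relative of Myc, was 3.86 to 4.38 in WT heart and passed the filter only through heart, so its call against fibroblasts was bound to follow. Cdkn1a, a p53 target like Rps27l, differed by -3.27 between WT lungs and WT fibroblasts and by -4.46 between WT heart and WT fibroblasts, and by 1.19 between WT lungs and WT heart. Mdm2, itself a p53 target, was 8.06 to 8.36 in WT lungs, 7.95 to 8.29 in WT heart and 9.45 and 10.03 in WT fibroblasts, with differences of -1.56 and -1.66 against fibroblasts, both called.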

How the data were processed

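The authors deposited log2 signals, 1 value per probe set and array, made with Partek 6.4 per the submitters' processing notes. Which background correction, probe summary and normalization they used is not stated in those notes or in the labels. The values were used as deposited. After 104 control entries were set aside, 45037 probe sets remained, 28898 of them annotated to exactly 1 gene. The 16 arrays were grouped by their titles. The files hold no counts, and precision depends on how many arrays each group has.

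Group means of all 6 groups were fitted together with limma 3.58.1 in R 4.3.3 (10 residual and 3.53 prior degrees of freedom). Probe sets entered a comparison where their mean over a compared tissue exceeded 3.79, the median of all values. The moderated tests were two-sided, with Benjamini-Hochberg adjustment over all kept probe sets and 95% intervals from the same fit. In simulated data the script's mean estimates came close to the planted changes. Changes as small as the genotype differences of most members were not simulated. Differences between tissues in the genotype difference were tested as interaction contrasts, and the mean of both organs of a mouse in a fit of its own.

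The members and gene lists were chosen with earlier results of these data known. The text names the paralogue pairs and the stalk, the 5 highest and 5 lowest members of each genotype comparison, the 10 largest called members in each direction of each WT tissue comparison that were also called in KO, Myo1c, and the 3 largest called partner genes in each direction. Rpl24, Rpl15, Rps29, Fau, Rpl36al, Eef1a1, Eif4e, Pabpc1, Vim and Mdm2 were named in places outside this rule, after their values were seen. The separate mouse numbers were read as separate animals, and p-values measure the spread between these samples.

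Lungs and heart of a mouse were paired by the mouse number in the titles. The deviations of its lungs correlated with those of its own heart at 0.0428 to 0.163 over the 6 mice, highest with its own heart for 4 of 6. A random replicate block by mouse had a correlation of 0.0542. Alternatives were quantile normalization, no filter, a fit on the compared tissues alone, the block, probe sets not ending in x_at or s_at, and leaving out each array. Promoter windows were read from a RefSeq table of build GRCm38.p6. Protein sequences and a genome were not used here.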

Additional observations from a re-analysis of the deposited data

How the results depend on the processing

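No call of a named member changed direction under any alternative. With the mouse as a random replicate block the counts of called members were those reported, 54, 34 and 67 in WT, 53, 38 and 66 in KO and 0 for each genotype comparison, and 132 of 132 results kept their side of the threshold. Leaving out each array in turn gave 22 to 35 called members for WT lungs against WT fibroblasts and 27 to 38 for KO lungs against KO fibroblasts, 49 to 56 and 48 to 53 for lungs against heart in WT and KO, 64 to 67 and 65 to 66 for heart against fibroblasts, and 0 to 1 for KO against WT fibroblasts, where Rpl39l was the member called without KO 1550. The counts were 0 in each such fit for KO against WT lungs and heart. Without the 3 lung samples with adipocyte transcripts, chosen after seeing the data, KO lungs against KO fibroblasts gave 23 called members, with 1 KO lung sample left and taken to vary like the other groups. Quantile normalization gave 62, 26 and 67 called members in WT. Rpl7l1, Rpl22, Rpl22l1, Rpl21 and Rpl7 gained or lost a tissue call under at least 1 alternative. The signals carry no depth, and groups of 2 or 3 samples limit what can be detected.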
